A study of Mus musculus with 15 samples.

Results

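The 41 genes described here encode the machinery that copies DNA in S phase and the enzymes that copy its chromatin and methylation with it. They were taken by gene symbol from a table of 24264 genes, and 41 of 41 symbols had a row. Their RNA was measured in 15 libraries from the brain of mouse embryos at stage E12.5, with 3 libraries each of dorsal midbrain, alar plate, forebrain, hindbrain and ventral midbrain. Every embryo was of the C57bl/6 strain and carried a green fluorescent protein under the promoter of Th, the tyrosine hydroxylase gene, so the regions differ by dissection and not by genotype or treatment. Tissue was taken under a microscope as whole pieces, not as sorted cells. The labels do not say where along the brain the alar plate pieces were cut, nor whether libraries of the same region are from different embryos. The p-values below therefore weigh differences against the spread among libraries of the same region, part of which may be technical. That spread was pooled over all 15 libraries, so a deviating library of any region enters every comparison.

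Before S phase, the origin recognition complex, Cdc6 and Cdt1 load the ring-shaped MCM2-7 helicase onto origins, and geminin (Gmnn) blocks Cdt1 once S phase has begun. Mcm10 and the GINS complex then turn the loaded ring into a working helicase, primase and DNA polymerase alpha lay down primers, and polymerases delta and epsilon extend them while held to DNA by the Pcna clamp. In the embryonic brain these genes are used by dividing progenitors next to the ventricle and are shut down as neurons leave the cell cycle. Many of them are known targets of E2F transcription factors.

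Start-site sequences show what the promoters of these genes share. They were read from a promoter table drawn from RefSeq (GRCm38.p6), and that table held 33 of the 41. E2F-type letters (TTTCGCGC, TTTGGCGC, TTTCCCGC or TTTGCCGC, on both strands, overlapping matches allowed) lay within 250 bases before the start of 8 of 33 members, or 24.2%. That compares with 2.16% of all 27025 genes in the promoter table and 3.95% of the 9396 genes that were also tested here. The 8 were Cdc6, Mcm5, Mcm6, Mcm7, Pola1, Rfc3, Uhrf1 and Dnmt1. CCAAT, on both strands, was found in 60.6% of members, against 40.9% of tested genes, and GGGCGG, the core of a GC box, in 69.7% against 65.5%. Each match is a description of letters, not a binding site. The 200 bases before the start are shown for 5 of the 8, with E2F-type letters in capitals: Mcm5 (chr8:75109309-75109508, plus strand), Mcm6 (chr1:128359706-128359905, minus strand), Uhrf1 (chr17:56304113-56304312, plus strand), Cdc6 (chr11:98907951-98908150, plus strand) and Rfc3 (chr5:151651209-151651408, minus strand). They were chosen for contrast, since Uhrf1 had the greatest difference of the 41 in the dorsal midbrain and Rfc3 did not pass the test there.
Mcm5: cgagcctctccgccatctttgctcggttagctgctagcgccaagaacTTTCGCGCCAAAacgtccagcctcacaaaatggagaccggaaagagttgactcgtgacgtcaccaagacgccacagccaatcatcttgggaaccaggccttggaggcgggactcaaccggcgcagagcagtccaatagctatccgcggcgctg
Mcm6: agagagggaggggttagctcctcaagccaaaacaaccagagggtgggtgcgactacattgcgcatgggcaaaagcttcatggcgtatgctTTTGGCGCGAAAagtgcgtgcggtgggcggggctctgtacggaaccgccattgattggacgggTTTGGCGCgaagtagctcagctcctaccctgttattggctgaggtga
Uhrf1: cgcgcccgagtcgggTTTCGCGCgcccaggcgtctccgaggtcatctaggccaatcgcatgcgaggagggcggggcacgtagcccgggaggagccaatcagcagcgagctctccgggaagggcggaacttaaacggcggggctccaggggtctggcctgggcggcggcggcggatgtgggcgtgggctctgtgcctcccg
Cdc6: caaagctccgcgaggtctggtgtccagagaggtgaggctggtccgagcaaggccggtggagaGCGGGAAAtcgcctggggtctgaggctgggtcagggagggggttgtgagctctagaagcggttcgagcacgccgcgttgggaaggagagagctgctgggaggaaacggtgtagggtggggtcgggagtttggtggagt
Rfc3: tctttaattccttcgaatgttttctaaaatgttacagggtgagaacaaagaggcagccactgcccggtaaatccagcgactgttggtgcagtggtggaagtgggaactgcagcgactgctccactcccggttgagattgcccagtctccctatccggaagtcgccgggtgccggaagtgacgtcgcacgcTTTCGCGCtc

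In Mcm5 the capitals begin 153 bases before the start and hold overlapping matches on opposite strands. Mcm6 has such a pair as well, 110 bases before its start, and a further match at 47 bases. The single matches of Uhrf1, Cdc6 and Rfc3 begin 185, 138 and 10 bases before the start. All 5 were chosen among members that hold these letters, so they say nothing of how the letters relate to the differences.

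Values are RPKM as deposited, that is, reads scaled for gene model length and library size, so levels can be compared between genes. Reads recovered from the RPKM steps summed to between 8163413 and 12341560 per library, and members had from 26 (Pole2) to 4221 (Dnmt1) reads in any library. Some midbrain markers followed the labels: Pax3 and Pax7 were high in the dorsal midbrain and Th, Lmx1a and Foxa2 in the ventral midbrain. The fit was not complete, since Lmx1a also reached 41.3 RPKM in forebrain 3 and Pax7 15.5 RPKM in hindbrain 1. Foxa2 was at 16.2 and 20.6 RPKM in forebrain 2 and 3 and at 9.35 RPKM in hindbrain 1. En1, another listed marker, was high in the ventral midbrain and reached 39.7 RPKM in hindbrain 1. Its level was only 0.456, 0.799 and 0.490 RPKM for dorsal midbrain 1, 2 and 3. Hoxa2, a hindbrain gene, was at 0.107 RPKM in hindbrain 1, against 11.1 and 6.24 in hindbrain 2 and 3. Libraries of 4 regions stood apart from their pair in Gbx2, a gene of the isthmus and diencephalon. Gbx2 was at 14.1 RPKM in dorsal midbrain 3, against 0.0776 and 0.1099 in dorsal midbrain 1 and 2. In the same gene alar plate 3 had 73.0 RPKM, against 0.0989 and 0 in its pair, and forebrain 1 had 111 RPKM, against 8.89 and 5.44. Hindbrain 1, low in Hoxa2, was low here too, at 0.128 RPKM, against 7.44 and 7.47 in its pair. The RPKM of alar plate 3 also summed to 489420, against 374280 to 390992 in the others, and depended on gene length. Results are therefore given with and without dorsal midbrain 3, alar plate 3 and forebrain 1, which were high in Gbx2, and the counts without hindbrain 1 stand with the alternatives. The replication genes themselves deviated most in these libraries, so values without them describe the remaining 12 and are no added support.

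The first comparison asked how the level of the replication genes in the dorsal midbrain stood against the other regions. Nearly all were higher: 39 of 41 genes passed the test as higher than the mean of the other 4 regions, none as lower (background of lower calls 13.8%), and the log2 differences ran from 0.39 (Rfc2) to 1.82 (Uhrf1) with a median of 1.06. Over all 13745 genes tested, 18.2% were called higher in this comparison and the median difference was 0.05. Only Rfc3 and Rpa3 missed the threshold, both above 0. All differences are in log2(RPKM + 1), where the added 1 shrinks the change of weakly expressed genes, and a gene is called at a Benjamini-Hochberg adjusted p under 0.05 in limma over all genes tested. Without dorsal midbrain 3, alar plate 3 and forebrain 1 the count was 41 of 41 (background 35.8%), with a median of 1.51. The count rests on dorsal midbrain 1 and 2, and fell to 13 (background 4.45%) without dorsal midbrain 1 and to 17 (6.04%) without dorsal midbrain 2, while it was 40 without dorsal midbrain 3 (19.2%) and 41 without alar plate 3 (30.8%). In bulk tissue, more cells in S phase and more RNA of these genes per cell cannot be told apart.

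**Figure D1:**
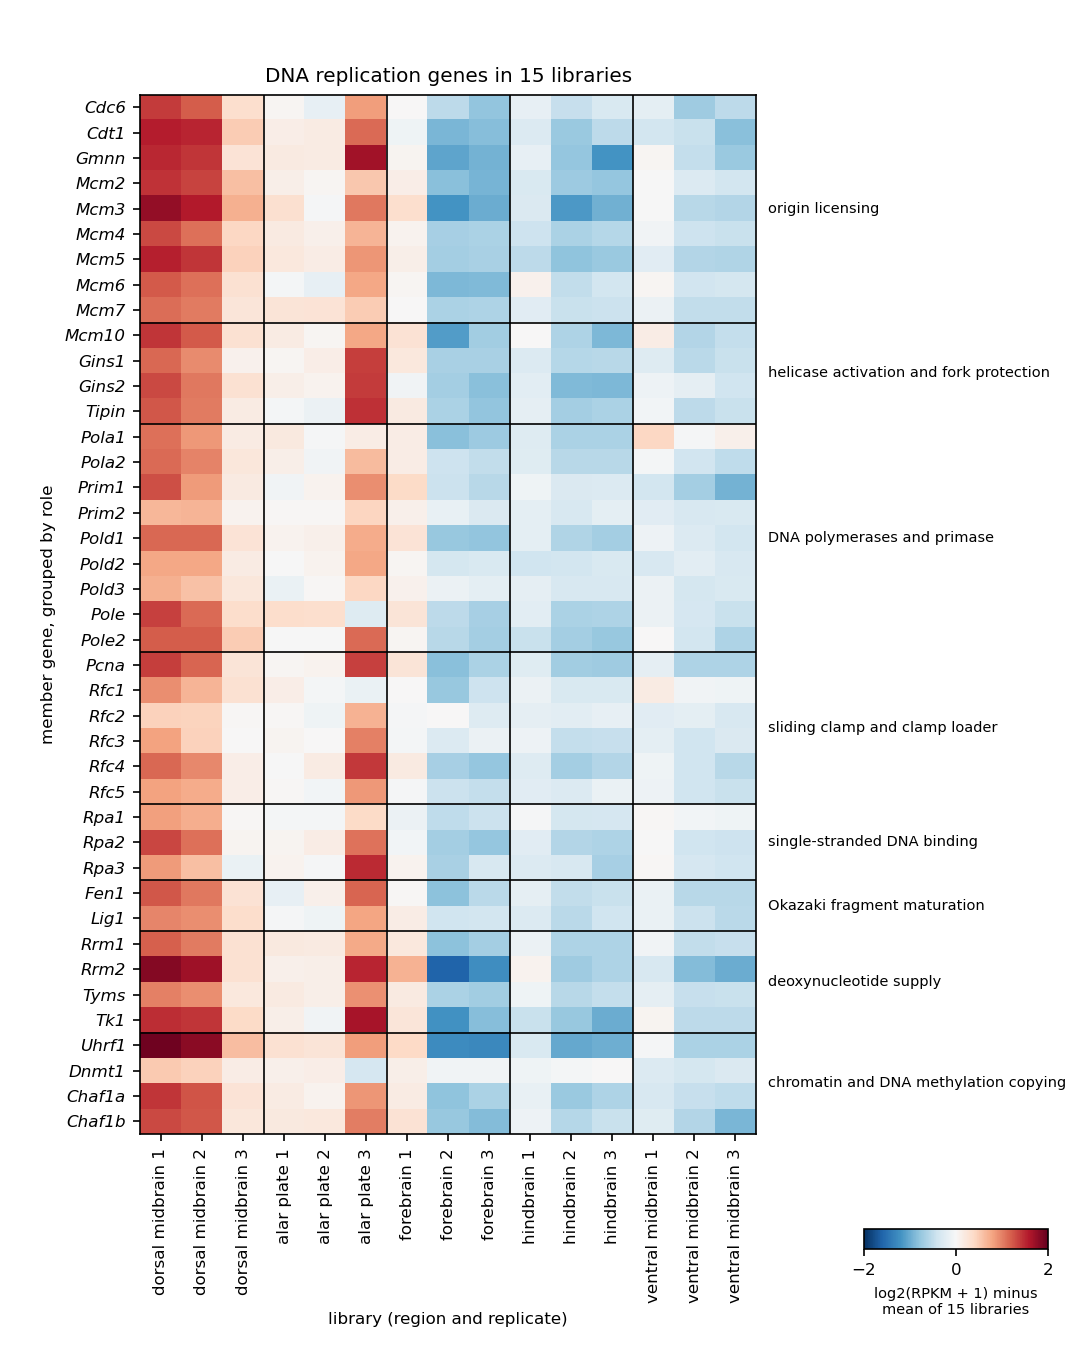
Level of each of the 41 replication genes (rows, grouped by role) in each of the 15 libraries (columns, by region), as log2(RPKM + 1) minus the gene's mean over the 15 libraries; red is above that mean and blue below. Dorsal midbrain 1 and 2 are red in every row, dorsal midbrain 3 is paler, alar plate 3 is red in most rows and forebrain 1 stands above forebrain 2 and 3.

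Origin licensing genes had the highest median of the 8 roles, with 9 of 9 called higher in the dorsal midbrain and a median log2 difference of 1.34. Mcm7, the most abundant subunit of the MCM2-7 ring, measured 77.8, 73.1 and 42.0 RPKM in the dorsal midbrain (replicates 1 to 3 in order), against 42.4, 42.7 and 50.6 in the alar plate, 35.3, 22.3 and 22.6 in the forebrain, 29.8, 25.5 and 26.0 in the hindbrain and 32.3, 24.8 and 24.6 in the ventral midbrain. Dorsal midbrain 1 and 2 lay above all other libraries for this gene, while dorsal midbrain 3 was below all 3 alar plate values. The difference was 1.002 ± 0.18 (SE, limma adjusted p = 0.00217). Mcm3, another subunit and the licensing gene with the greatest difference, reached 54.1, 48.1 and 25.8 RPKM in the dorsal midbrain (replicates 1 to 3 in order), against 19.5, 15.02 and 33.2 in the alar plate, 19.6, 6.16 and 7.23 in the forebrain, 12.3, 6.40 and 7.39 in the hindbrain and 15.3, 10.1 and 9.90 in the ventral midbrain. Its difference was 1.69 ± 0.33 (SE, limma adjusted p = 0.00324), and alar plate 3 was the only library of another region above dorsal midbrain 3.

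The other ring subunits averaged, in the dorsal midbrain against the hindbrain, 57.3 ± 16.7 and 16.2 ± 3.2 RPKM for Mcm2 (SD, n = 3 each), 30.6 ± 9.4 and 9.96 ± 0.89 for Mcm4, 39.0 ± 14.4 and 9.61 ± 1.1 for Mcm5, and 51.7 ± 16.3 and 22.5 ± 5.1 for Mcm6. Against the mean of the other 4 regions they were higher by 1.41, 1.18, 1.44 and 1.10. The subunits form a ring with a copy of each, yet their RNA levels per length were unequal: Mcm7 was the highest of the 6 in every region, and exceeded the lowest subunit 2.10-fold in the dorsal midbrain and 3.11-fold in the hindbrain. The loaders were weakly expressed. Cdc6 averaged 4.56 ± 1.9 RPKM in the dorsal midbrain and 1.04 ± 0.59 in the forebrain (SD, n = 3 each), the lowest mean of all members, with a difference of 1.23 ± 0.24 (SE, limma adjusted p = 0.00362) from the other 4 regions. Cdt1 differed by 1.501 ± 0.26 (SE, limma adjusted p = 0.00207), and its inhibitor Gmnn by 1.34 ± 0.37 (SE, limma adjusted p = 0.0156). The ratio of Cdt1 to Gmnn RPKM was 0.737, 0.758 and 0.835 in dorsal midbrain 1, 2 and 3, and 0.472 to 1.21 in the other 12 libraries, so the dorsal midbrain lay inside their range.

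All 4 genes of helicase activation and fork protection were called higher, with a median of 1.07. Mcm10, needed to start unwinding, was at 10.4, 8.92 and 4.27 RPKM in the dorsal midbrain (replicates 1 to 3 in order), against 3.76, 3.35 and 6.26 in the alar plate, 4.16, 0.947 and 1.63 in the forebrain, 3.28, 1.78 and 1.29 in the hindbrain and 3.70, 1.83 and 2.04 in the ventral midbrain. Both dorsal midbrain 1 and 2 exceeded every other library, and the difference was 1.23 ± 0.31 (SE, limma adjusted p = 0.01). Tipin, which with Timeless steadies the fork, measured 45.7, 39.3 and 21.1 RPKM in the dorsal midbrain (replicates 1 to 3 in order), against 18.2, 17.2 and 53.5 in the alar plate, 21.3, 11.7 and 10.4 in the forebrain, 16.3, 11.3 and 11.7 in the hindbrain and 18.02, 12.7 and 13.5 in the ventral midbrain. For Tipin alar plate 3 was the highest of the 15 libraries. The dorsal midbrain difference was 1.02 ± 0.32 (SE, limma adjusted p = 0.0278). Gins1 and Gins2, subunits of the GINS complex, differed by 0.91 (adjusted p = 0.0271) and 1.12 (adjusted p = 0.0108), and alar plate 3 was their highest library as well.

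The polymerase and primase subunits were called higher in 9 of 9 cases, with a median of 0.97. Pold2, an accessory subunit of polymerase delta and the most abundant of the 9, measured 27.4, 27.4 and 17.6 RPKM in the dorsal midbrain (replicates 1 to 3 in order), against 15.5, 16.4 and 27.2 in the alar plate, 15.9, 12.01 and 12.48 in the forebrain, 11.6, 11.9 and 12.4 in the hindbrain and 12.3, 13.3 and 12.3 in the ventral midbrain. Its difference was modest, at 0.72 ± 0.16 (SE, limma adjusted p = 0.00604). Pole2, a subunit of polymerase epsilon, had the greatest difference of the group, with 7.70, 7.63 and 4.34 RPKM in the dorsal midbrain (replicates 1 to 3 in order), against 2.74, 2.73 and 7.19 in the alar plate, 2.83, 1.54 and 1.33 in the forebrain, 1.75, 1.33 and 1.22 in the hindbrain and 2.78, 1.90 and 1.45 in the ventral midbrain. The 3 dorsal midbrain values and alar plate 3 lay above every other library, and the difference was 1.22 ± 0.24 (SE, limma adjusted p = 0.00378). Pole, the catalytic subunit of polymerase epsilon, differed by 1.19 ± 0.23 (SE, limma adjusted p = 0.00302). As deposited, it was one of 4 members whose 3 dorsal midbrain libraries all lay above the other 12. The catalytic subunits of polymerase alpha (Pola1) and delta (Pold1) differed by 0.89 and 1.07. Pola2 (a regulatory subunit of polymerase alpha), Prim1 (the catalytic primase subunit), Prim2 (its large partner) and Pold3 (another delta subunit) differed by 0.99, 0.97, 0.59 and 0.64. Prim2 and Pold3 had the smallest differences of the 9, and averaged 13.8 ± 3.2 and 19.5 ± 3.4 RPKM in the dorsal midbrain, against 7.88 ± 0.44 and 10.8 ± 0.71 in the hindbrain (SD, n = 3 each).

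Of the clamp and its loader, 5 of 6 were called higher, with a median of 0.75. Pcna, the sliding clamp and the most abundant member of the 41, reached 161, 138 and 73.0 RPKM in the dorsal midbrain (replicates 1 to 3 in order), against 62.9, 64.1 and 159 in the alar plate, 73.1, 34.0 and 39.2 in the forebrain, 51.5, 37.3 and 37.1 in the hindbrain and 53.7, 39.5 and 39.7 in the ventral midbrain. Alar plate 3 came next to dorsal midbrain 1 and lay above dorsal midbrain 2, and dorsal midbrain 3 was level with forebrain 1. The difference was 1.16 ± 0.30 (SE, limma adjusted p = 0.0127). The loader subunits differed less. Rfc1, the large subunit, differed by 0.80 ± 0.15 (SE, limma adjusted p = 0.0027), Rfc4 by 0.94, Rfc5 by 0.70 and Rfc2 by 0.39 ± 0.14 (SE, limma adjusted p = 0.0475). The Rfc2 call was the least stable of the 39: it was lost under 16 of 25 alternatives, with adjusted p up to 0.24. Rfc3 did not pass the test: it measured 41.8, 32.6 and 23.5 RPKM in the dorsal midbrain (replicates 1 to 3 in order), against 24.6, 23.7 and 48.5 in the alar plate, 22.9, 19.2 and 21.6 in the forebrain, 21.8, 16.7 and 16.8 in the hindbrain and 20.4, 17.7 and 19.1 in the ventral midbrain, with a difference of 0.53 ± 0.19 (SE, limma adjusted p = 0.0548). Here alar plate 3 was above all 3 dorsal midbrain libraries and dorsal midbrain 3 was below all 3 alar plate libraries. Rfc2 was the most abundant of the 4 small ones in every region, at 2.98 times Rfc5 in the dorsal midbrain and 4.37 times in the forebrain.

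Replication protein A coats the single strands that the helicase exposes. Rpa1, its large subunit, was at 36.1, 33.5 and 20.3 RPKM in the dorsal midbrain (replicates 1 to 3 in order), against 19.4, 19.3 and 26.2 in the alar plate, 18.3, 13.8 and 14.6 in the forebrain, 19.7, 15.4 and 15.5 in the hindbrain and 20.4, 19.1 and 18.7 in the ventral midbrain, and differed by 0.66 ± 0.15 (SE, limma adjusted p = 0.00763). Rpa2, the middle subunit, measured 35.3, 29.8 and 13.99 RPKM in the dorsal midbrain (replicates 1 to 3 in order), against 14.003, 14.9 and 29.6 in the alar plate, 12.9, 8.03 and 7.40 in the forebrain, 11.3, 8.62 and 8.401 in the hindbrain and 13.3, 9.97 and 9.78 in the ventral midbrain. It differed by 1.03 ± 0.26 (SE, limma adjusted p = 0.0113), and dorsal midbrain 3 matched alar plate 1. Rpa3, the small subunit and the shortest of the 41 gene models, was not called: it measured 24.0, 20.0 and 11.6 RPKM in the dorsal midbrain (replicates 1 to 3 in order), against 13.4, 12.52 and 37.8 in the alar plate, 13.5, 7.79 and 10.04 in the forebrain, 10.4, 10.1 and 7.69 in the hindbrain and 13.1, 9.94 and 9.44 in the ventral midbrain. Alar plate 3 had the highest value and dorsal midbrain 3 lay below both other alar plate libraries, and the difference was 0.56 ± 0.28 (SE, limma adjusted p = 0.152). In the 12 libraries without the 3 high in Gbx2, Rpa3 differed by 1.01 and Rfc3 by 0.83, and both were called.

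Both genes that finish Okazaki fragments were called higher. Fen1, the nuclease that trims the flaps, had 31.0, 27.1 and 15.4 RPKM in the dorsal midbrain (replicates 1 to 3 in order), against 11.1, 13.4 and 29.2 in the alar plate, 12.7, 6.62 and 8.33 in the forebrain, 10.8, 8.59 and 8.90 in the hindbrain and 11.3, 8.22 and 8.23 in the ventral midbrain. Its difference was 1.08 ± 0.26 (SE, limma adjusted p = 0.00911). Lig1, the ligase that seals them, had 39.2, 38.3 and 25.1 RPKM in the dorsal midbrain (replicates 1 to 3 in order), against 19.1, 18.3 and 34.6 in the alar plate, 21.7, 14.5 and 14.82 in the forebrain, 16.1, 13.1 and 14.5 in the hindbrain and 17.7, 14.2 and 13.2 in the ventral midbrain, and a difference of 0.94 ± 0.19 (SE, limma adjusted p = 0.00403). For both, the 3 dorsal midbrain libraries lay above all others but alar plate 3.

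The 4 enzymes of deoxynucleotide supply were called higher, with a median of 1.21. Rrm2, the small subunit of ribonucleotide reductase, measured 109.9, 99.0 and 37.1 RPKM in the dorsal midbrain (replicates 1 to 3 in order), against 32.4, 32.8 and 88.0 in the alar plate, 49.1, 9.24 and 12.1 in the forebrain, 31.5, 17.9 and 19.3 in the hindbrain and 23.9, 16.01 and 14.7 in the ventral midbrain. Its values varied widely within a region: dorsal midbrain 3 was at 0.355 times the mean of dorsal midbrain 1 and 2, and forebrain 1 at 4.60 times the mean of forebrain 2 and 3. The difference, 1.59 ± 0.46 (SE, limma adjusted p = 0.0193), had the greatest standard error of the 41. Rrm1, the large subunit, averaged 59.0 ± 17.9 RPKM in the dorsal midbrain and 22.8 ± 5.0 in the hindbrain (SD, n = 3 each) and differed by 1.06 ± 0.23 (SE, limma adjusted p = 0.00536) from the other 4 regions. The ratio of Rrm2 to Rrm1 RPKM was 1.51, 1.52 and 0.956 in dorsal midbrain 1, 2 and 3, against 0.904, 0.925 and 1.64 in the alar plate, 1.36, 0.533 and 0.636 in the forebrain, 1.10, 0.897 and 0.967 in the hindbrain and 0.804, 0.733 and 0.659 in the ventral midbrain. As deposited, it was highest in alar plate 3, dorsal midbrain 1 and 2 and forebrain 1, and at most 1.10 in the other libraries. Rrm2 (2524 bases) is shorter than Rrm1 (4536 bases), and the alar plate 3 ratio carries that library's length trend. Against alar plate 1 and 2, Rrm2 and Rrm1 deviated there by 1.41 and 0.57 (log2), and by 1.21 and 0.82 with the trend subtracted. The ratio was not tested. Tk1, thymidine kinase, and Tyms, thymidylate synthase, differed by 1.37 (adjusted p = 0.0146) and 0.90 (adjusted p = 0.0101).

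The genes that copy chromatin and DNA methylation were called higher in 4 of 4 cases, with a median of 1.19, and held both the widest and one of the narrowest differences among members. Uhrf1, which binds hemimethylated DNA behind the fork, measured 64.9, 58.7 and 25.3 RPKM in the dorsal midbrain (replicates 1 to 3 in order), against 20.3, 19.4 and 29.5 in the alar plate, 21.7, 6.13 and 5.99 in the forebrain, 12.9, 7.42 and 7.67 in the hindbrain and 15.8, 10.01 and 10.03 in the ventral midbrain. It differed by 1.82 ± 0.35 (SE, limma adjusted p = 0.00316). Dnmt1, the maintenance methyltransferase that Uhrf1 recruits, measured 56.2, 53.7 and 43.1 RPKM in the dorsal midbrain (replicates 1 to 3 in order), against 41.6, 42.6 and 30.4 in the alar plate, 42.3, 36.8 and 36.9 in the forebrain, 36.4, 37.8 and 38.9 in the hindbrain and 31.9, 30.2 and 31.6 in the ventral midbrain. As deposited, all 3 dorsal midbrain libraries lay above the other 12, yet the difference was only 0.47 ± 0.10 (SE, limma adjusted p = 0.00514). Dnmt1 also followed the other members least closely in the deposited values. Across the 15 libraries its Pearson r with the mean of the other 40 was 0.58, against 0.82 for Rfc1, the next lowest, and 0.99 for Chaf1a, the highest (a description over libraries that share regions). Pola1 (0.85) and Pole (0.86) came after Rfc1. Dnmt1, Rfc1, Pola1 and Pole are the 4 longest members (7091, 5337, 6031 and 8004 bases), so these r carry the length trend of alar plate 3. The r with the trend subtracted is not given. The Uhrf1 to Dnmt1 ratio was 1.16, 1.09 and 0.588 in the dorsal midbrain, against 0.487, 0.455 and 0.9702 in the alar plate, 0.513, 0.166 and 0.162 in the forebrain, 0.355, 0.196 and 0.197 in the hindbrain and 0.494, 0.331 and 0.317 in the ventral midbrain, a ratio that was not tested. Its alar plate 3 value carries the length trend of that library, since Uhrf1 (4153 bases) is shorter than Dnmt1 (7091 bases). Against alar plate 1 and 2, Uhrf1 and Dnmt1 deviated there by 0.55 and -0.46 (log2), and by 0.73 and 0.16 with the trend subtracted. Chaf1a and Chaf1b, subunits of the chromatin assembly factor that places histones on new DNA, differed by 1.23 ± 0.25 (SE, limma adjusted p = 0.00424) and 1.16 ± 0.28 (SE, limma adjusted p = 0.00917).

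**Figure D2:**
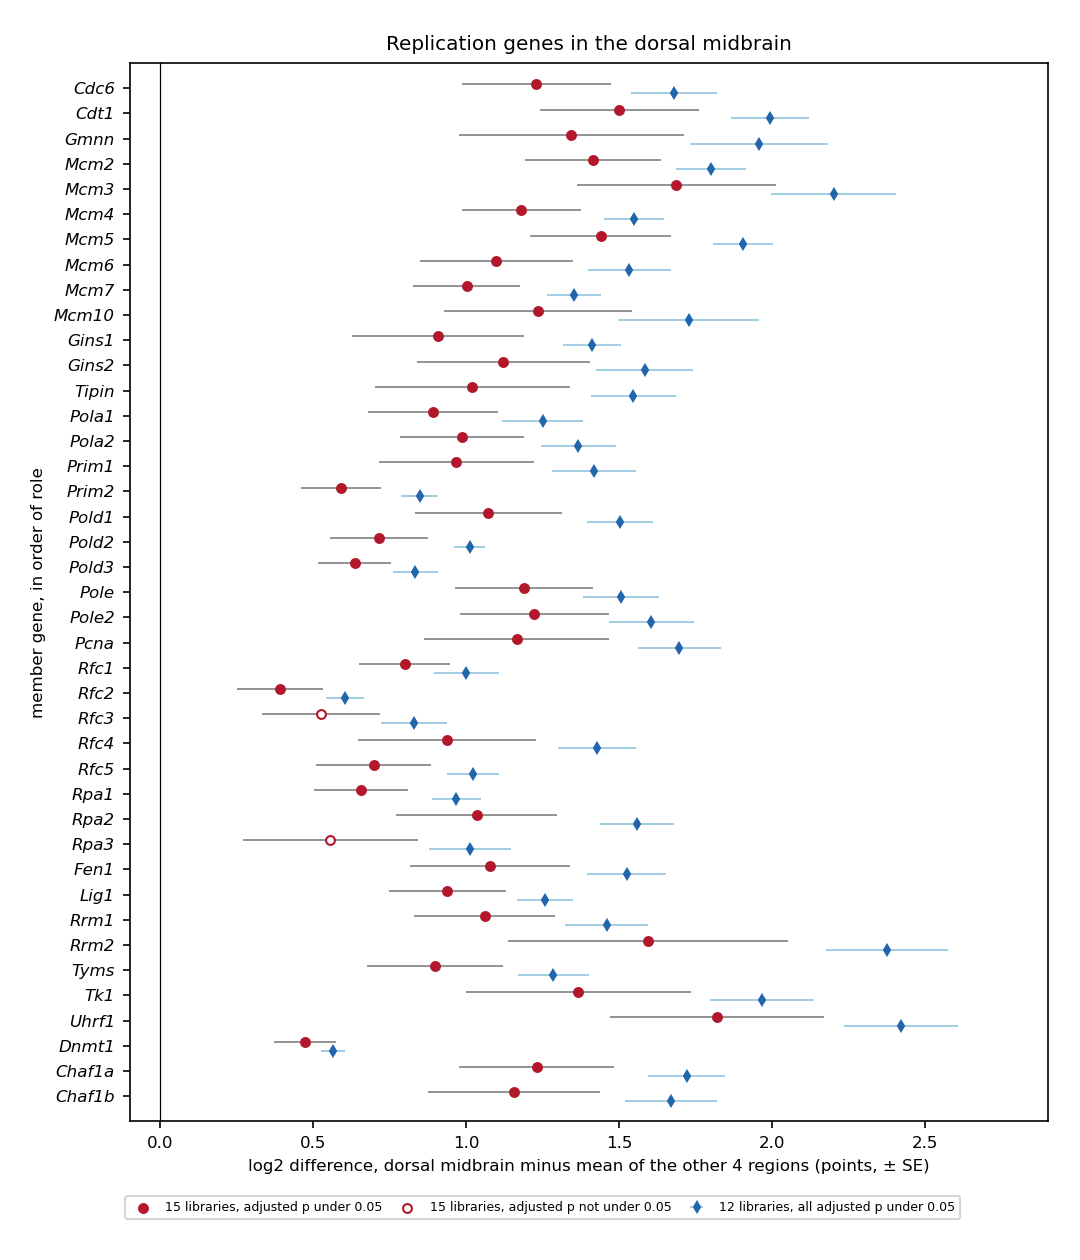
Log2 difference of each replication gene between the dorsal midbrain and the mean of the other 4 regions (points, with the standard error as bars), in all 15 libraries (red; open where the adjusted p was not under 0.05) and in the 12 left without dorsal midbrain 3, alar plate 3 and forebrain 1 (blue). All points lie above 0, from 0.39 to 1.82 in 15 libraries, and only Rfc3 and Rpa3 are open.

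Set against single regions, replication genes were called higher in the dorsal midbrain than in 3 of the other 4. Against the forebrain 38 of 41 members were called higher (background 16.3%), with a median of 1.28, and Rfc2, Rfc3 and Rpa3 were not called. Against the hindbrain 40 were called (background 17.4%), all but Rpa3, with a median of 1.29. Against the ventral midbrain 36 were called (background 12.4%), with a median of 1.16, and Tipin, Pola1, Rfc3, Rpa1 and Rpa3 were not. As deposited, Pola1 had its next highest regional mean there after the dorsal midbrain, at 5.66 ± 1.0 RPKM, against 9.03 ± 3.1 in the dorsal midbrain and 5.35 ± 0.50, 3.46 ± 1.8 and 3.18 ± 0.66 in the alar plate, forebrain and hindbrain (SD, n = 3 each). That alar plate mean includes alar plate 3, where Pola1 deviated from alar plate 1 and 2 by 0.06 (log2), and by 0.53 with the length trend subtracted. Each of these counts dropped without dorsal midbrain 1 or 2, to 8 and 15 for the forebrain, 21 and 21 for the hindbrain, and 13 and 17 for the ventral midbrain. The forebrain count was also 14 and 13 without forebrain 2 or 3, and the ventral midbrain count 20 and 20 without ventral midbrain 2 or 3. The shares of all genes called in these settings are not given, so the drops are not read as particular to the members. Without dorsal midbrain 3, alar plate 3 and forebrain 1 all 41 were called higher than in the forebrain (background 36.1%), the hindbrain (34.9%) and the ventral midbrain (32.4%).

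Against the alar plate no member was called (background 1.26%) by limma. The unadjusted limma p was under 0.05 for 3026 of all 13745 genes tested and for 16 of 41 members. Voom on the recovered reads also called 0 members. The differences had a median of 0.47 and ran from -0.06 for Rpa3 to 0.99 for Uhrf1, and the lowest adjusted p was 0.0881, for Rfc1. Without dorsal midbrain 3, alar plate 3 and forebrain 1, 41 of 41 were called higher in the dorsal midbrain than in the alar plate (background 21.5%), with a median of 1.07 and a range from 0.38 (Dnmt1) to 1.65 (Rrm2). Leaving out dorsal midbrain 3 alone gave 12, leaving out alar plate 3 alone gave 1 and leaving out forebrain 1 alone gave 2. For these counts too the shares of all genes are not given. The 4 comparisons share the dorsal midbrain libraries, so their values are given side by side. For Mcm3 the log2 differences from alar plate, forebrain, hindbrain and ventral midbrain were 0.90, 1.97, 2.15 and 1.73. In that order they were 0.99, 2.17, 2.22 and 1.89 for Uhrf1, 0.44, 1.33, 1.48 and 1.40 for Pcna and 0.41, 0.38, 0.42 and 0.68 for Dnmt1.

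Ranked by mean RPKM, the dorsal midbrain came first in 40 of 41 members and the alar plate next in 37, and Rpa3 was the exception with the alar plate first. The hindbrain came last in 27, the ventral midbrain in 8 and the forebrain in 6, and pairs among them and the alar plate were not tested against each other. In the 12 libraries without the 3 high in Gbx2, the dorsal midbrain was first in 41, the alar plate next in 39 and the forebrain last in 31, so the region that came last changed from hindbrain to forebrain. As deposited, all 3 dorsal midbrain libraries lay above the other 12 in only 4 members (Mcm2, Pole, Rfc1 and Dnmt1, background 5.91%). Pole, Rfc1 and Dnmt1 were also the only members lower in alar plate 3 than in alar plate 1 and 2, at -0.60, -0.18 and -0.46 (log2). With the length trend of that library subtracted these deviations were 0.12, 0.18 and 0.16. The count of members with the trend subtracted is not given. Without the 3 libraries high in Gbx2, dorsal midbrain 1 and 2 lay above the other 10 libraries in 41 members (background 28.6%). With alar plate 3 alone left out, all 3 dorsal midbrain libraries lay above the other 11 in 27 members (background 11.2%). Dorsal midbrain 1 was the highest of the 15 libraries in 28 members, alar plate 3 in 10 and dorsal midbrain 2 in 3.

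The other 4 regions were each compared in the same way with the mean of the rest, a comparison that in every case includes the dorsal midbrain on the other side. In the alar plate 0 members were called higher (limma, background 1.24%), and voom called 0. The unadjusted limma p was under 0.05 for 10 of 41 members and for 3987 of all 13745 genes tested, in either direction. Of the members, 39 of 41 lay above 0 and the median was 0.45. In the forebrain 0 were called lower and 0 higher (backgrounds 2.3% and 0.618%), and voom called 0, with all 41 below 0 and a median of -0.52. There the unadjusted limma p was under 0.05 for 17 members and for 2806 of all 13745 genes tested. In the hindbrain only Mcm5 was called, at -0.87 ± 0.23 (SE, limma adjusted p = 0.0433) (background of lower calls 2.27%, of higher calls 4.03%), with all 41 below 0 and a median of -0.57. In the ventral midbrain only Dnmt1 was called, at -0.38 ± 0.10 (SE, limma adjusted p = 0.0304) (background of lower calls 3.16%, of higher calls 7.43%), with a median of -0.40. The Dnmt1 values of the ventral midbrain, 31.9, 30.2 and 31.6 RPKM, were below every other library except alar plate 3. Pola1 and Rfc1 were not below 0 in the ventral midbrain, at 0.20 and 0.00. Without dorsal midbrain 3, alar plate 3 and forebrain 1 the counts were 1 higher in the alar plate (background 5.06%), 38 lower in the forebrain (24.7%), 38 lower in the hindbrain (19.4%) and 27 lower in the ventral midbrain (17.4%).

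Within a region the replication genes moved together from library to library. Dorsal midbrain 3 was the lowest of its 3 libraries in 41 of 41 members (44.3% of tested genes were lowest there), at a median of 0.528 times the mean of dorsal midbrain 1 and 2, from 0.355 for Rrm2 to 0.784 for Dnmt1. Forebrain 1 was the highest of its region in 40 (background 44.8%), at a median of 1.96 times its pair, from 1.07 for Rfc2 to 4.60 for Rrm2. Hindbrain 1 was highest in 37 (background 47.8%) and ventral midbrain 1 in 39 (background 40.2%), at a median of 1.33 and 1.32 times their pairs. Summed over the 41 genes, the level was 1519, 1366 and 767 RPKM in dorsal midbrain 1, 2 and 3, against 676, 664 and 1240 in the alar plate, 709.7, 398 and 408 in the forebrain, and 427 to 579 across hindbrain and ventral midbrain. The dorsal midbrain and alar plate ranges overlapped, and the lowest dorsal midbrain sum was above every hindbrain, ventral midbrain and forebrain sum.

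**Figure D3:**
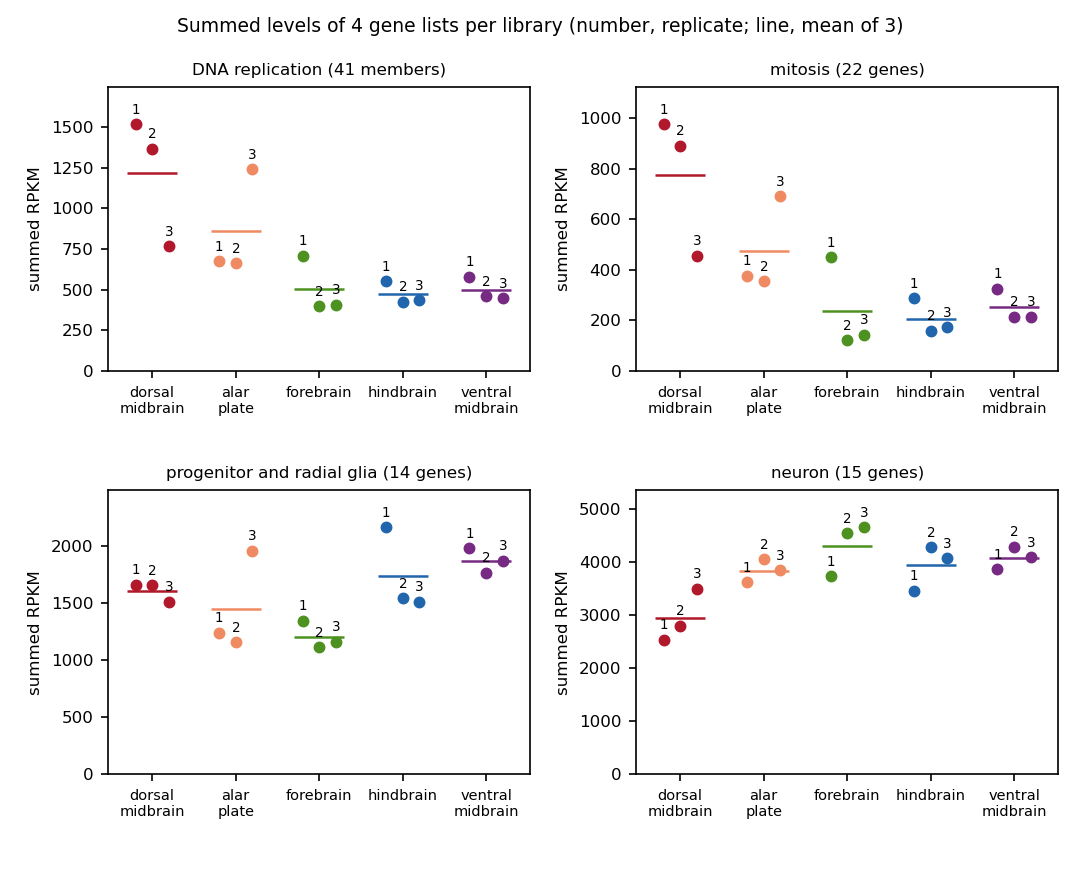
Summed RPKM per library of the 41 replication genes, 22 mitosis genes, 14 progenitor and radial glia genes and 15 neuron genes, by region (numbers mark the replicate, lines the mean of 3). Replication and mitosis sums are highest in dorsal midbrain 1 and 2 (1519 and 1366, and 977 and 892), whereas the neuron sums are lowest there (2537 and 2800).

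Alar plate 3 carried a length trend that touches every member. Of its 41 values, 38 lay above the mean of alar plate 1 and 2 on the log2 scale (background 48.8%), and the excess was greater for shorter genes, with a Spearman rho of -0.76 between deviation and gene model length over the 41 members and -0.62 over 13718 genes tested (descriptions across genes, which are not independent). Among the 3 shortest, Rpa3 (817 bases) was at 37.8 RPKM in alar plate 3, against 13.4 and 12.52 RPKM in alar plate 1 and 2, Gmnn (1192 bases) at 27.5 RPKM in alar plate 3, against 9.07 and 8.95 RPKM in alar plate 1 and 2, and Gins2 (1260 bases) at 21.8 RPKM in alar plate 3, against 8.39 and 8.05 RPKM in alar plate 1 and 2. The 3 longest went the other way or hardly moved. Pole (8004 bases) was at 3.38 RPKM in alar plate 3, against 5.69 and 5.59 RPKM in alar plate 1 and 2, Dnmt1 (7091 bases) at 30.4 RPKM in alar plate 3, against 41.6 and 42.6 RPKM in alar plate 1 and 2, and Pola1 (6031 bases) at 5.51 RPKM in alar plate 3, against 5.75 and 4.80 RPKM in alar plate 1 and 2. The 14 shortest members had a median deviation of 1.31 and the 13 longest of 0.57.

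Over all genes the median deviation was 0.55 in genes of up to 2043 bases and -0.55 in genes longer than 4929 bases, so part of the members' excess in alar plate 3 was shared by other genes of their length. When the trend over all genes was subtracted, rho over the members was -0.02, and 41 of 41 lay above 0 (background 51.8%), with a median of 0.73 and a range from 0.11 (Mcm7) to 1.26 (Cdc6). Alar plate 3 exceeded at least one of dorsal midbrain 1 and 2 in 13 members as deposited and in 4 after subtraction. The dorsal midbrain comparison moved little with the subtraction: 40 of 41 were called higher, all but Rpa3, with a median of 1.02. Among members, the dorsal midbrain difference had a Spearman rho of 0.14 with gene model length and -0.11 with mean RPKM.

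**Figure D4:**
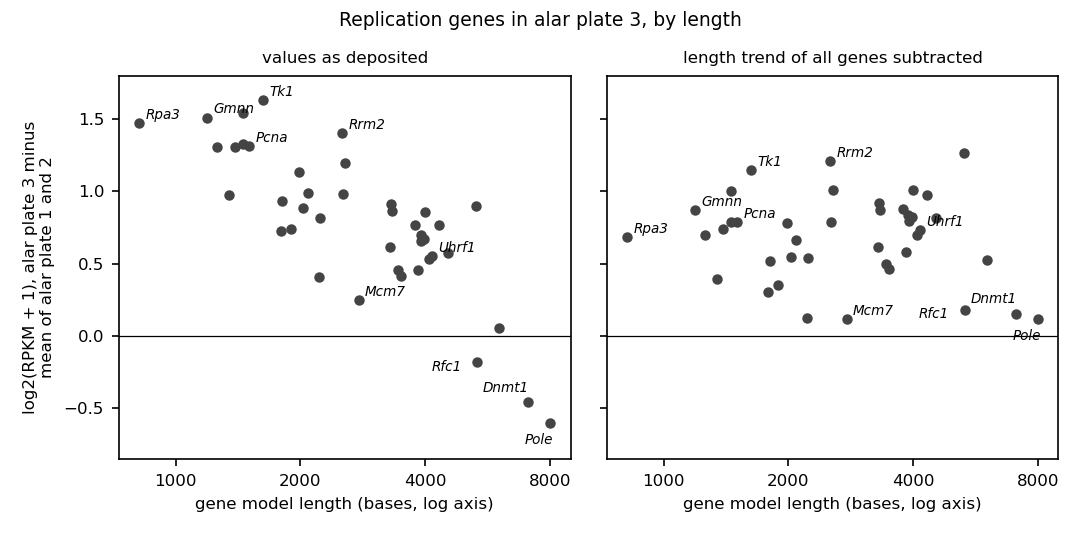
Deviation of alar plate 3 from the mean of alar plate 1 and 2, in log2(RPKM + 1), for each of the 41 replication genes against gene model length (log axis), as deposited (left) and after subtraction of the trend over all genes (right). Deposited values slope down from 1.47 for Rpa3 to -0.60 for Pole, while after subtraction all 41 points lie between 0.11 and 1.26 with no slope.

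Other genes of the cell cycle showed where the 41 stand in their pathway. Of 43 further replication genes tested (44 listed, Ticrr was not matched), 34 were called higher in the dorsal midbrain than in the other 4 regions and none lower (backgrounds 18.2% and 13.8%), with a median of 0.71. The greatest differences were those of Asf1b, a histone chaperone, at 1.70 (adjusted p = 0.00383), Hells, a chromatin remodeller, at 1.51 (adjusted p = 0.00195), 2810417H13Rik, the Pcna-associated factor Pclaf, at 1.499 (adjusted p = 0.0209), and Dtl, which targets Cdt1 for destruction, at 1.49 (adjusted p = 0.003). The 9 not called were Orc3, Orc4, Orc5 and Orc6 of the origin recognition complex, the accessory polymerase subunits Pold4 and Pole4, Rrm2b, Dtymk and Rnaseh2c. Orc3 varied little, at 15.6, 14.7 and 16.2 RPKM in the dorsal midbrain, against 12.3 to 15.9 in the other 12 libraries. Rrm2b, a reductase subunit used outside S phase, differed by -0.14 (adjusted p = 0.386), while its S-phase counterpart Rrm2 differed by 1.59.

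Among 18 genes of the E2F and S phase entry list 14 were called higher (background 18.2%), with a median of 0.84. These included the activator E2f1 at 1.46 (adjusted p = 0.00861), the repressor E2f7 at 1.49 (adjusted p = 0.00218), the E2F partner Tfdp2 at 1.46 (adjusted p = 0.00185) and Ccna2, cyclin A2, at 1.44 (adjusted p = 0.00928). Of the pocket proteins, which hold E2F factors back, Rbl1 was called higher as well, at 1.196 (adjusted p = 0.000889). Rb1 and Rbl2 did not pass the test, at -0.08 (adjusted p = 0.499) and -0.12 (adjusted p = 0.311), nor did E2f5 and Ccne2. All 22 mitosis genes were called higher, with a median of 1.42, led by Top2a, a topoisomerase, at 1.73 (adjusted p = 0.00583), Mki67, a proliferation marker, at 1.65 (adjusted p = 0.00599), Aurkb, a mitotic kinase, at 1.63 (adjusted p = 0.00625), and Ccnb1, cyclin B1, at 1.55 (adjusted p = 0.00772). Whether the mitosis genes differed more than the replication genes was not tested. Against the alar plate 0 mitosis genes were called by limma (background of higher calls 1.26%), with a median of 0.73. Of the 22, 5 had an unadjusted limma p under 0.05, as had 3026 of all 13745 genes tested.

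Markers of cell types moved with these results to different degrees. Over all genes tested, the shares called higher and lower in the dorsal midbrain against the other 4 regions were 18.2% and 13.8%. Of 15 neuron genes, 8 were called lower in the dorsal midbrain and none higher, with a median of -0.54, led by Mapt, which encodes tau, at -1.27 (adjusted p = 0.00374), Nefl, a neurofilament, at -0.85 (adjusted p = 0.0309), Nsg2 at -0.74 (adjusted p = 0.00304) and Stmn3 at -0.73 (adjusted p = 0.00928). Their summed level was 2537 to 3494 RPKM in the dorsal midbrain, against 3617 to 4046 in the alar plate, 3725 to 4649 in the forebrain, 3460 to 4275 in the hindbrain and 3866 to 4284 in the ventral midbrain. Dorsal midbrain 3 had the highest neuron sum of its region and forebrain 1 the lowest of its own, the reverse of their replication sums. Alar plate 3 had the highest replication sum of its region and a neuron sum of 3842 RPKM, between those of alar plate 1 and 2. The median log2(RPKM + 1) of the neuron genes was lower there, at 6.48, against 7.52 and 7.62 in alar plate 1 and 2. Sum and median thus differ in alar plate 3, and both are as deposited, with the length trend of that library. Progenitor and radial glia genes were mixed, with 6 of 14 called higher, such as Hes5, a Notch target, at 1.34 (adjusted p = 0.00257) and Sox3 at 1.28 (adjusted p = 0.00114), and 3 called lower, such as Slc1a3, a glutamate transporter, at -1.46 (adjusted p = 0.000638) and Id4 at -0.81 (adjusted p = 0.0148). The part of these cell types in the replication gene differences was not tested.

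Meningeal and mesenchymal genes passed as higher in the dorsal midbrain in 7 of 8 cases (background 18.2%), with a median of 2.005, led by the collagen gene Col1a1 at 3.19 (adjusted p = 0.00297). Their summed level was 67.7 to 128 RPKM in the dorsal midbrain, against 8.97 to 165 in the alar plate, 4.06 to 16.1 in the forebrain, 4.45 to 9.19 in the hindbrain and 6.63 to 7.57 in the ventral midbrain, and Lum was at 0 in 5 of the hindbrain and ventral midbrain libraries. Alar plate 1 had the highest of these sums. Endothelial genes were called higher in 5 of 9 cases, with sums of 56.8 to 78.2 RPKM in the dorsal midbrain, against 43.2 to 70.9 elsewhere. Erythroid genes were called in 0 of 5 tested (limma), with sums of 1245 to 2170 RPKM in the dorsal midbrain, against 893 to 2548 elsewhere. Of the 5, 2 had an unadjusted limma p under 0.05, as had 5930 of all 13745 genes tested. Microglial and macrophage genes were called in 1 of 5, Fcgr3, a count close to the background of 18.2%, with sums of 15.7 to 17.5 RPKM, against 7.60 to 17.7 elsewhere. The part of these cells in the replication gene differences was not tested.

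Outside the 41, the genes whose pattern over the 15 libraries was most like the mean of the 41 members were Usp1, with a Pearson r of 0.996, then Tmpo, Cenpl, Cdk2 and Srsf1, all with an r of at least 0.992. Usp1 averaged 33.8 RPKM in the dorsal midbrain and 12.4 in the other regions. The most opposite pattern was that of Mapt, with an r of -0.994 and 84.6 RPKM in the dorsal midbrain, against 203 in the other regions, followed by Chd5, Inpp4a, Celf4 and Ids. These values describe 15 libraries that share regions and differ in composition, and no test was made of them.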

How the data were processed

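The authors deposited a single table of RPKM values, 1 column per library and 24264 genes. Per the submitters' processing notes, reads were handled with Bowtie and the mm9 genome. For annotation, counting, strand and filters nothing is stated in the sources used here, so members that share reads with pseudogenes or overlapping genes are uncertain. Per the labels' protocols, libraries were made from 200 ng of RNA each.

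Reads were recovered from the RPKM steps: of 16612 genes above 0 in at least 10 libraries, 99.84% gave whole reads in every library (tolerance 0.02 reads for small values, at most 0.15). At median gene length 3 reads are worth 0.077 to 0.116 RPKM, which is a floor that covers counting alone.

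The tests used limma (3.58.1, R 4.3.3), with a variance trend, on log2(RPKM + 1) of the 13745 genes that reached 1 RPKM in 3 or more libraries. All 41 members passed this filter. A single fit held the 5 regions, tests were two-sided, and Benjamini-Hochberg adjustment ran over all genes tested within each of 9 comparisons. The procedure was also run on simulated data, with independent noise of the same spread for all genes. The simulation held no length trend and no deviating libraries, so it says nothing of how these affect the calls. Alternatives were another pseudocount (0.1), other filters, quantile and median-ratio scaling, subtraction of each library's length trend, a replicate block, limma voom on recovered reads, and leaving out libraries. Lists were described by counts and medians, with no set test. Genes given with the value of every library were, for each role, the most abundant member and the one with the greatest dorsal midbrain difference, and the members not called there. In other lists, up to 4 genes with the greatest differences were named. Orc3, Rrm2b, Rb1, Rbl2, the other genes that were not called there, and Rbl1 were named after their values were seen. The members, gene lists and alternatives were chosen with earlier results of these data known. Promoter sequences are from RefSeq (GRCm38.p6), another build than that of the reads, and were matched by symbol. A marker gene on the lists is not reported here.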

Additional observations from a re-analysis of the deposited data

How the results depend on the processing

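No member was called against its main direction in any of the 9 comparisons under any alternative, and of 1024 values of single members in the dorsal midbrain against the other 4 regions, 0 reversed, 62 lost and 9 gained a call (26 of the losses without dorsal midbrain 1 and 22 without dorsal midbrain 2). Leaving out 1 library at a time gave 13 to 41 members called in the dorsal midbrain against the other 4 regions, 8 to 41 against the forebrain, 21 to 41 against the hindbrain, 13 to 40 against the ventral midbrain and 0 to 12 against the alar plate. The same gave 0 in the alar plate against the rest, 0 to 11 in the forebrain, 0 to 15 in the hindbrain and 0 to 7 in the ventral midbrain. Beyond the backgrounds given above, the shares of all genes called under the alternatives are not given. The counts here are therefore not read as particular to the members. Without dorsal midbrain 3, forebrain 1 and alar plate 3, 41 members were called against the alar plate, and 1, 38, 38 and 27 in alar plate, forebrain, hindbrain and ventral midbrain against the rest. With the length trend subtracted as well, an alternative chosen after seeing the data, these counts were 41, 1, 38, 37 and 26. The single hindbrain call was 0 with no filter or with RPKM of at least 5 in 3 libraries, 3 with quantile normalization and 2 with the length trend subtracted, and the ventral midbrain count was 2 with the length trend subtracted. The cause of these shifts was not tested. Rfc2 lost its call under 16 of 25 alternatives, voom, median-ratio scaling, no filter, the replicate block and 12 of 15 left-out libraries. Without hindbrain 1, 38 members were called in the dorsal midbrain against the rest, 0, 37, 36 and 34 against alar plate, forebrain, hindbrain and ventral midbrain, and 0, 0, 0 and 1 in these against the rest.

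Over all genes, the dorsal midbrain against the other 4 regions gave 2495 higher and 1903 lower calls, and 1880 and 2280 with median-ratio scaling. Against the forebrain it gave 2247 and 1508, and 1657 and 1850 with that scaling. Median-ratio scaling and quantile normalization moved the median of all genes by less than 0.1, and in the dorsal midbrain against the other 4 regions no member's direction turned.

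Same-numbered libraries of different regions correlated in their deviations from the region mean at between -0.18 and 0.40, and 18 of 30 pairs were over 0.1, so the numbers were not taken to pair the libraries. All pairs among forebrain, hindbrain and ventral midbrain were positive, at 0.23 to 0.38, whereas most pairs with the alar plate or with dorsal midbrain 2 were not. Of 15 libraries, 10 correlated best on average with their own number, a hint from the data and not from the design. With the replicate number as a block, 38 members were called in the dorsal midbrain against the rest, 38, 39 and 35 against forebrain, hindbrain and ventral midbrain, and 2 against the alar plate. The block gave 0, 1, 5 and 1 in alar plate, forebrain, hindbrain and ventral midbrain against the rest. The shares of all genes called with the block are not given. Members had at least 26 reads in every library, and the counting error at the lowest counts was not tested; with 3 libraries per region, a single library decides many calls.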
